A study of Homo sapiens with 6 samples.

Results

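The 9 genes described here serve the building and the breakdown of glycogen: GYG1, GYG2, GYS1, GBE1, PYGB, PYGL, PGM1 and UGP2, which encode enzymes, and PPP1R3C, which encodes a subunit that targets protein phosphatase 1 to glycogen. They were picked by symbol out of 20461 genes with an Ensembl identifier, with results of this experiment already known. ARPE-19, a line of human retinal pigment epithelium, was the source of the RNA. The control group (3 libraries) carried a control lentivirus and the PDZK1 group (3 libraries) a lentivirus for overexpression of PDZK1, a scaffold protein with PDZ domains. Both groups were transduced at a multiplicity of infection of 10, selected with 4 μg/ml puromycin and held in 37.5 mM glucose for 48 h before RNA was taken. The promoter of the PDZK1 construct is not given in the sources used here. Every comparison below is therefore between cells under the same high glucose load.

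Glycogen is a branched store of glucose. Phosphoglucomutase turns glucose 6-phosphate into glucose 1-phosphate, UGP2 activates it to UDP-glucose, glycogenin starts a chain on itself, glycogen synthase lengthens the chain and the branching enzyme adds branch points. Phosphorylase releases glucose 1-phosphate again, and protein phosphatase 1 held on the glycogen particle favours synthesis by activating the synthase and inactivating phosphorylase.

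Total counts ran from 27970618 to 32804567 per library, and a count of 0 allows up to 3 counts, or 0.0915 to 0.109 CPM (counts scaled to library size, with TMM). This floor covers counting error only. Nothing in the labels says that the libraries of a group came from separate cultures, and the p-values then measure only the spread between these libraries. PDZK1 itself had 18 to 23 counts per control library and 2541 to 3020 counts per PDZK1 library (log2 fold change 7.03 ± 0.131 SE, adjusted p = 8.16e-09 in edgeR's quasi-likelihood test). Control replicate 3 lay at -29.99 on the second principal component, whereas the other control libraries lay at 14.45 and 18.79. PDZK1 replicate 1 had 11459 counts of BEST1, a channel gene of the pigment epithelium, against 124 to 181 counts in the other 5 libraries. Of 13 markers of retinal pigment epithelium, 10 had more than 3 counts in every library, whereas RPE65, the isomerase of the visual cycle, and TTR were at 0 in all 6. Their summed level was 1026 to 1180 FPKM (fragments scaled by transcript length and library size) in the control libraries and 1078 to 1218 FPKM in the PDZK1 libraries, most of it from the keratins KRT8 and KRT18. The highest sum, 1218 FPKM in PDZK1 replicate 1, includes 77.5 FPKM of BEST1. Of 11 markers of other cell types, PTPRC, CDH5 and MYH2 were at 0 in all libraries, and CD68 alone exceeded 3 counts in each. The summed level of those 11 was 70.9 to 85.9 FPKM in the control libraries and 66.6 to 68.3 FPKM in the PDZK1 libraries. Nearly all of this sum was CD68, at 70.8 to 85.8 FPKM in the control and 66.5 to 68.3 FPKM in the PDZK1 libraries. Its part in the results was not tested.

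In the cells with PDZK1 the fitted level of GYG2, the minor glycogenin of these cells, was 0.409 times that of the control cells. PYGL, the liver-type phosphorylase, stood at 0.862 times and GYG1, the major glycogenin, at 0.893 times the control level. PPP1R3C stood at 1.19 times the control level. These 4 were the members whose CPM did not overlap between the groups, 3 of them lower and 1 higher with PDZK1, where 23.9% of the 13645 genes tested did not overlap. The other 5, GYS1, GBE1, UGP2, PGM1 and PYGB, overlapped. All 9 passed the filter on low counts, and GYG2 alone was past an adjusted p of 0.05, a threshold that 3.83% of all genes tested passed. The genes were chosen with this contrast known, so these counts describe them and nothing is read from them. The median log2 fold change was -0.06 over the 9 genes and -0.00026 over all genes tested.

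**Figure D1:**
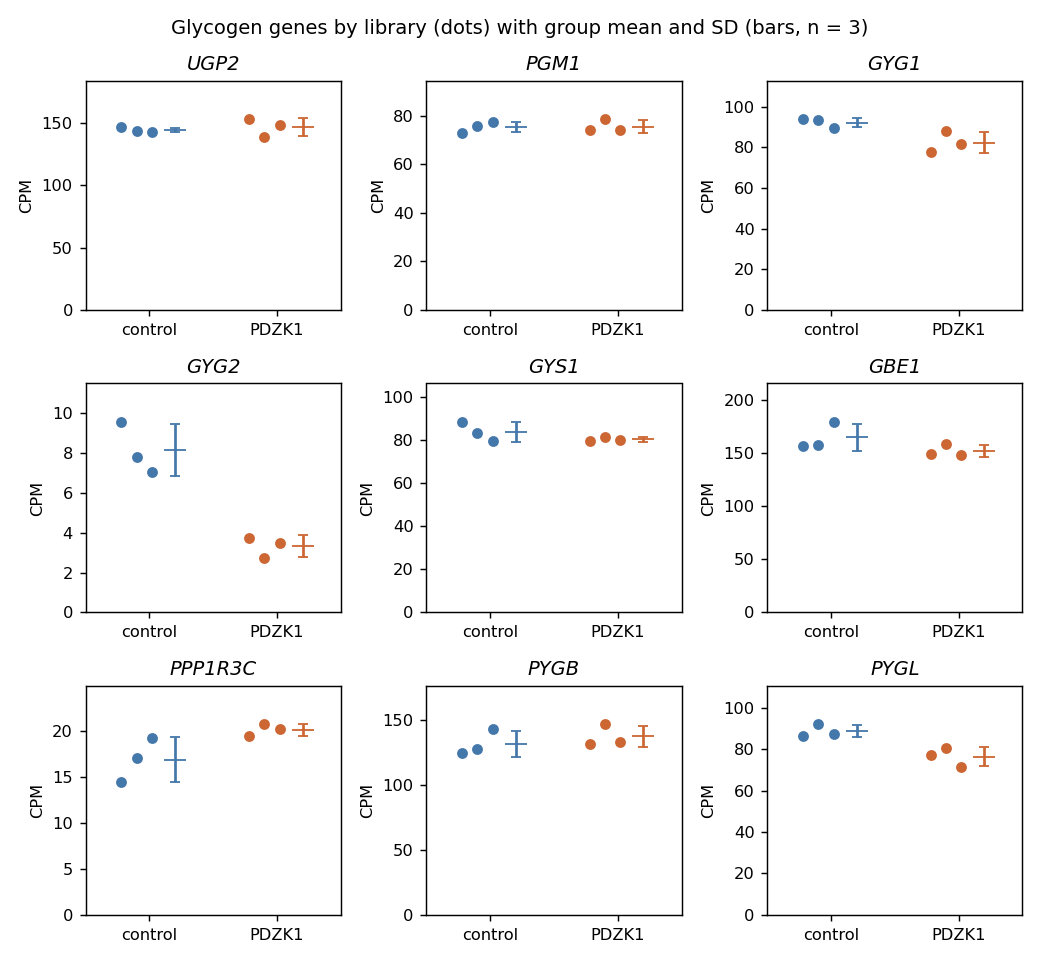
CPM (vertical axis of each panel, from 0) of the 9 glycogen genes in the 3 control and the 3 PDZK1 libraries, with the group mean and SD. The GYG2 points span 7.03 to 9.57 CPM for control and 2.72 to 3.75 CPM for PDZK1, whereas PGM1 and UGP2 lie at the same height in both groups.

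Glycogenin is the protein on which a glycogen particle starts, and humans have a widely expressed gene for it, GYG1, and a second, GYG2, known for its expression in liver. GYG2 (ENSG00000056998, GRCh38 chromosome X, 2828788 to 2882820, plus strand) gave 309, 240 and 194 counts in the control libraries and 120, 89 and 111 counts in the PDZK1 libraries. Scaled by depth these were 9.57, 7.77 and 7.03 CPM against 3.75, 2.72 and 3.50 CPM. Every control library lay above every PDZK1 library. The means were 8.12 ± 1.3 CPM and 3.32 ± 0.538 CPM (SD, n = 3 each), and the log2 fold change was -1.29 ± 0.172 (SE). Per transcript length GYG2 had 2.31 ± 0.294 FPKM in control cells and 0.937 ± 0.176 FPKM with PDZK1, without overlap. In bulk RNA, fewer cells that carry the transcript and less of it per cell cannot be told apart. The gene contains GYG2-AS1 on the opposite strand, with which it shares 0 exonic bases, and it has 1 pseudogene, GYG2P1, with which reads could be shared.

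GYG1 (ENSG00000163754, chromosome 3, 148991341 to 149027668, plus strand) had 93.9, 93.3 and 89.6 CPM in the control libraries and 77.6, 87.9 and 81.8 CPM in the PDZK1 libraries. PDZK1 replicate 2 came close to control replicate 3, and the groups did not overlap. The log2 fold change was -0.16 ± 0.0515 (SE). Per transcript length the difference was gone, with 37.0 ± 1.64 FPKM in control cells and 37.5 ± 1.62 FPKM with PDZK1 (SD, n = 3 each) and overlapping libraries. The ratio of counts to FPKM, which follows the transcript length that the quantification assigned to the gene, was 0.820 and 0.854 times the control mean in PDZK1 replicates 1 and 3 and 0.991 times in PDZK1 replicate 2. Between the highest and the lowest library this ratio differed 1.24-fold for GYG1, more than in 89.8% of 11842 genes with at least 50 counts in each library. Among the other 8 members it differed at most 1.08-fold. The lower count of GYG1 thus came with a shift in assigned length in 2 libraries, and 3 pseudogenes (GYG1P1, GYG1P2 and GYG1P3) could share its reads. The cause was not tested.

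GYG1 supplied most glycogenin transcript in both groups. GYG2 made up 6.40%, 5.70% and 5.50% of the summed FPKM of both genes of the control libraries, against 2.71%, 2.02% and 2.54% with PDZK1. The share was lower in every PDZK1 library than in every control library, with means of 5.87% ± 0.474 and 2.42% ± 0.360 (SD, n = 3 each). The sum itself was 39.3 ± 1.92 FPKM in control cells and 38.5 ± 1.79 FPKM with PDZK1, and the libraries overlapped. Most of this sum was GYG1, whose assigned length shifted in PDZK1 replicates 1 and 3. In CPM, GYG1 and GYG2 each lay lower in every PDZK1 library than in every control library. The overlap of the sum therefore holds for FPKM only.

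PPP1R3C (ENSG00000119938, chromosome 10, 91628442 to 91633054, minus strand), also called PTG, brings protein phosphatase 1 to glycogen synthase and phosphorylase. It had 14.4, 17.0 and 19.2 CPM in the control libraries and 19.4, 20.7 and 20.2 CPM in the PDZK1 libraries. The PDZK1 libraries lay close together, the control libraries were spread, and the highest control library, replicate 3, lay just below the lowest PDZK1 library. The means were 16.9 ± 2.41 CPM and 20.1 ± 0.655 CPM (SD, n = 3 each), and the log2 fold change was 0.25 ± 0.102 (SE). Without control replicate 3 it was 0.36, and without control replicate 1 it was 0.15.

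PPP1R3C and GYG2 had the highest and the lowest log2 fold change of the 9, so the sequence before each gene is shown. The stretches are from RefSeq on GRCh38.p14 and are written 5′ to 3′ on the strand of the gene. Capitals mark matches on either strand to ACGTG, the core of the hypoxia response element, which CACGTG (an E-box) holds on both strands, and to CCAAT, the site of NF-Y. The PPP1R3C stretch is chr10:91633072-91633321 on the minus strand and ends at the RefSeq start, 17 bases before the GENCODE gene begins. The GYG2 stretch is chrX:2828680-2828787 on the plus strand and ends where the GENCODE gene begins.
PPP1R3C: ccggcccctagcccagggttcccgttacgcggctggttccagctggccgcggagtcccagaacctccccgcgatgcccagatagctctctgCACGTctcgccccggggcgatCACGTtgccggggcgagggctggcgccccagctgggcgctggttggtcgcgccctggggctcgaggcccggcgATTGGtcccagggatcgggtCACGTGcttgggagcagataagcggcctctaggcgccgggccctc
GYG2: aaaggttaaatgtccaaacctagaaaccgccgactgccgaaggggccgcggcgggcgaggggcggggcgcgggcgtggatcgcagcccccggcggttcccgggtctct
The PPP1R3C stretch holds ACGTG at 4 positions, which begin 159, 138, 45 and 44 bases before the RefSeq start and of which the last pair is the same CACGTG read on both strands, and CCAAT at 1 position. The shown GYG2 stretch is 108 bases long, against 250 for PPP1R3C, and holds neither motif. It leaves out the 142 bases next to the RefSeq start of GYG2, in which CCAAT begins 18 bases before that start. In windows of 250 bases before the RefSeq start, which all 9 genes have (12 windows, as PGM1 and UGP2 have several starts), ACGTG was present in 5 windows (PGM1, UGP2, GBE1, GYG1 and PPP1R3C) and in 18.5% of 34943 such windows genome-wide. CACGTG was present in 2 (GYG1 and PPP1R3C) and in 6.32% genome-wide, and CCAAT in 4 (UGP2, PPP1R3C, GYS1 and GYG2) and in 32.0% genome-wide. A match is a description of letters. The GC content of the 12 windows was 51.2% to 77.2%, beside a median of 58.0% over all windows.

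Of the enzymes that elongate and branch the chain, GYS1 (ENSG00000104812, chromosome 19, 48968125 to 48993310, minus strand), the glycogen synthase of tissues other than liver, had 88.5, 83.2 and 79.5 CPM in the control libraries and 79.6, 81.6 and 79.9 CPM in the PDZK1 libraries. The groups overlapped, and the log2 fold change was -0.06 ± 0.0479 (SE). GYS2, the liver synthase, had 3 counts in control replicate 3 and 0 in the other libraries. GBE1 (ENSG00000114480, chromosome 3, 81489699 to 81762161, minus strand), the branching enzyme, had 157, 158 and 180 CPM in the control libraries and 149, 159 and 149 CPM in the PDZK1 libraries. Control replicate 3 stood above the rest. The log2 fold change of GBE1 was -0.12 ± 0.0557 (SE) with all libraries and -0.05 without control replicate 3. GBE1 had 2.40 ± 0.309 times the FPKM of GYS1 in control cells and 2.29 ± 0.0436 times with PDZK1 (SD, n = 3 each), and the libraries overlapped.

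The supply of UDP-glucose to the synthase showed the smallest differences. UGP2 (ENSG00000169764, chromosome 2, 63840940 to 63891562, plus strand) had 146.5, 143.5 and 142.9 CPM in the control libraries and 153.0, 139.0 and 148.0 CPM in the PDZK1 libraries, so the PDZK1 libraries lay on both sides of the controls. Its log2 fold change was 0.02 ± 0.0403 (SE). PGM1 (ENSG00000079739, chromosome 1, 63593276 to 63660245, plus strand), the phosphoglucomutase, had 73.1, 75.7 and 77.4 CPM in the control libraries and 74.0, 78.6 and 74.2 CPM in the PDZK1 libraries. Its means differed by less than the SD of either group, and its log2 fold change was 0.0037 ± 0.0458 (SE). The sign of both log2 fold changes turned when single libraries were left out, with a range of -0.0059 to 0.0629 for UGP2 and -0.0233 to 0.0223 for PGM1. PGM1 shares 197 exonic bases with ITGB3BP on the opposite strand, and since the strandedness of the counting is not given in the sources used here, reads there could belong to either gene.

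Breakdown begins with phosphorylase, of which ARPE-19 cells carried transcripts for the brain type, PYGB, and the liver type, PYGL. The muscle type, PYGM, had at most 6 counts in a library. PYGL (ENSG00000100504, chromosome 14, 50857891 to 50944736, minus strand) had 86.4, 92.0 and 87.4 CPM in the control libraries and 77.3, 80.6 and 71.3 CPM in the PDZK1 libraries. All PDZK1 libraries lay below all control libraries. The log2 fold change was -0.21 ± 0.0532 (SE), and per transcript length the levels were 29.05 ± 0.945 FPKM and 25.2 ± 1.49 FPKM (SD, n = 3 each), again without overlap. PYGL shares 180 exonic bases with the antisense gene AL358334.3. PYGB (ENSG00000100994, chromosome 20, 25248069 to 25298014, plus strand) had 125, 128 and 143 CPM in the control libraries and 132, 147 and 134 CPM in the PDZK1 libraries. These overlapped, and the log2 fold change was 0.06 ± 0.0623 (SE). It was 0.12 without control replicate 3, the library in which PYGB was highest among the controls, and 0.01 without PDZK1 replicate 2.

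The balance between the phosphorylases is given as a description, and a difference in it was not tested. PYGL supplied 50.4%, 51.4% and 47.2% of the summed PYGB and PYGL FPKM of the control libraries, against 46.3%, 44.7% and 44.0% with PDZK1. The groups did not overlap, and the closest libraries were control replicate 3 and PDZK1 replicate 1. The means were 49.7% ± 2.15 and 45.0% ± 1.19 (SD, n = 3 each). The sum of both was 58.5 ± 2.1 FPKM in control cells and 56.0 ± 2.98 FPKM with PDZK1, and the libraries overlapped.

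Synthesis was set against breakdown as the FPKM of GYS1 divided by the summed FPKM of PYGB and PYGL. The control libraries gave ratios of 0.406, 0.364 and 0.337, and the PDZK1 libraries gave 0.374, 0.357 and 0.386. All PDZK1 values lay within the range of the control values, and the means were 0.369 ± 0.0347 and 0.372 ± 0.0146 (SD, n = 3 each). At this spread no difference in the ratio of synthase to phosphorylase transcript was detectable. These are transcript levels, and both enzymes are known to be regulated by phosphorylation, which RNA sequencing does not measure.

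**Figure D2:**
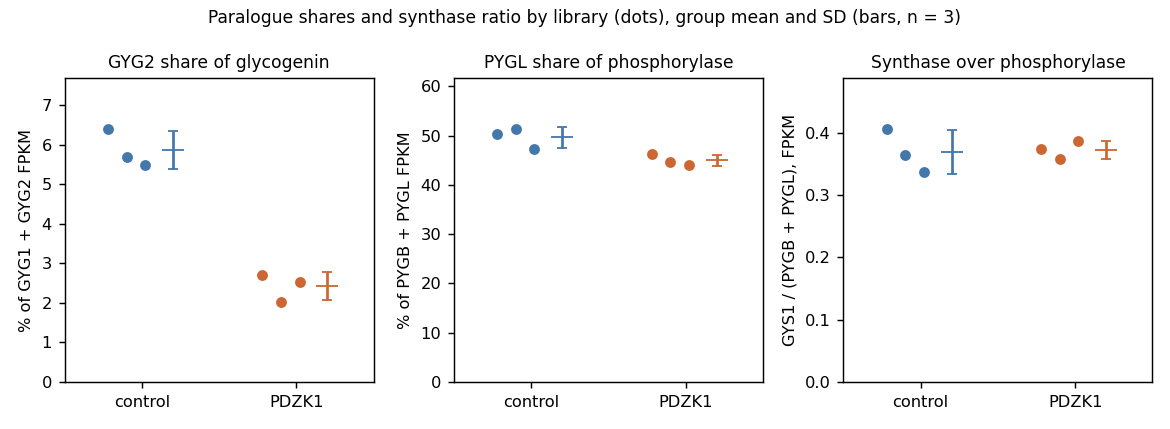
Share of GYG2 in the FPKM of both glycogenins (percent), share of PYGL in the FPKM of PYGB and PYGL (percent), and FPKM of GYS1 over that of PYGB plus PYGL (ratio), 1 point per library with the group mean. The first pair of quantities separates the groups, at 5.87% against 2.42% and 49.7% against 45.0%, and the ratio does not, at 0.369 against 0.372.

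Ordered by transcript level per length over all 6 libraries, UGP2 came first with 64.1 FPKM, followed by GBE1 with 49.6, GYG1 with 37.3, PYGB with 30.2, PGM1 with 29.7, PYGL with 27.1, GYS1 with 21.2, PPP1R3C with 6.70 and GYG2 with 1.62 FPKM. Neighbours in this order whose ranges over all 6 libraries overlapped were PYGB with PGM1 and PGM1 with PYGL. These ranges pool both groups, so the overlap does not show that the levels were equal. In the control libraries the ranges of PGM1, PYGB and PYGL overlapped, with means of 29.6, 29.5 and 29.05 FPKM. In the PDZK1 libraries PYGL, at 25.2 FPKM, lay below both PGM1 and PYGB in every library. The synthase was thus lower per length than each phosphorylase and than the branching enzyme in both groups.

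**Figure D3:**
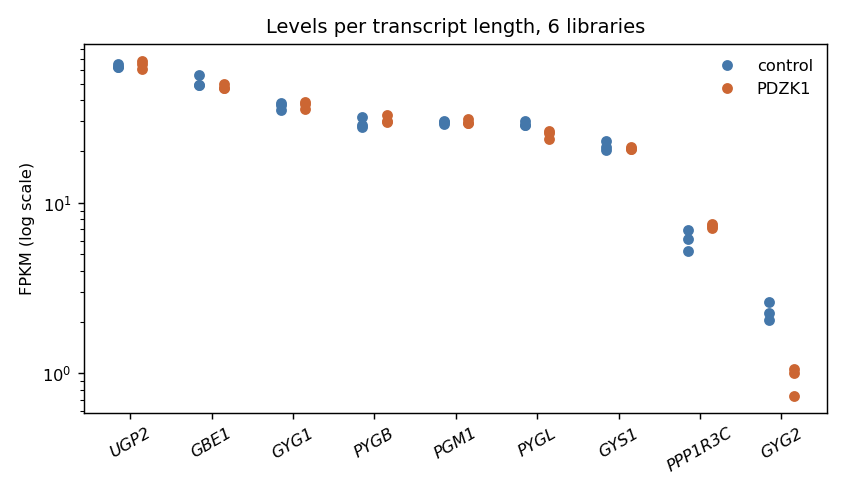
FPKM of the 9 glycogen genes (log axis) in each library, control in blue and PDZK1 in orange, ordered by the mean over all 6 libraries. The levels span from 64.1 FPKM for UGP2 to 1.62 FPKM for GYG2, and the control and PDZK1 points part most for GYG2.

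The other genes of glycogen metabolism were counted from a list of 35 that holds the remaining isoenzymes, phosphorylase kinase, phosphatase subunits, quality control genes and the kinases of the synthase. Of these, 31 were tested, and GYS2, PYGM, PPP1R3A and PRKAG3 were not, with at most 6 counts in a library. In edgeR's quasi-likelihood test with adjustment over all genes, 1 of the 31 fell and 0 rose, or 3.23%, near the 3.83% of all genes. At an unadjusted p under 0.05 in the edgeR test there were 5 of the 31, beside 2388 of all 13645 genes tested. DESeq2 also called 1 at the adjusted threshold. Of the 31, 19 log2 fold changes were above 0 and 12 below, with a median of 0.02.

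The gene that fell was PGM5, a relative of phosphoglucomutase known as a structural protein of adherens junctions and without enzyme activity. It had 213, 208 and 219 CPM in the control libraries and 185, 183 and 182 CPM in the PDZK1 libraries, and differed by a log2 fold change of -0.21 ± 0.0337 SE (edgeR, adjusted p = 0.00833). The groups lay far apart for their spread, and yet the call was lost in 5 of 16 alternatives: without PDZK1 replicate 1 or 3 (adjusted p = 0.0569 each), on log2(FPKM + 1) and log2(FPKM + 0.1) (limma, adjusted p = 0.055 and 0.0569), and with the replicate number as a block (adjusted p = 0.0607). The log2 fold change of PGM5 was -0.23 to -0.19 over all 16, and its adjusted p 0.000166 to 0.0607. Per length PGM5, at 50.4 FPKM over all libraries, was the most abundant of the listed genes of the phosphoglucomutase family.

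The most abundant gene of each other role did not pass the test. GAA, the lysosomal glucosidase that degrades glycogen in lysosomes, had a log2 fold change of 0.13 ± 0.0728 (SE) and 19.7 FPKM, the highest level among the breakdown genes after PYGB and PYGL. PHKB, a subunit of phosphorylase kinase, had a log2 fold change of -0.03 ± 0.031, and PPP1CB, a catalytic subunit of protein phosphatase 1, one of -0.03 ± 0.038. Those of GABARAPL1, an autophagy adaptor that binds glycogen receptors, and PRKAG1, a subunit of AMP-activated kinase, were 0.04 ± 0.0488 and -0.08 ± 0.0476. The SE of each was below that of GYG2.

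The quality control genes included the pair mutated in Lafora disease, in which poorly branched glycogen accumulates. NHLRC1, the ubiquitin ligase malin, had 4.06, 4.99 and 5.51 CPM in control cells against 3.59, 3.42 and 3.94 CPM with PDZK1, and EPM2A, the glycogen phosphatase laforin, had 14.7, 13.1 and 13.2 CPM against 15.2, 15.2 and 17.3 CPM. Neither gene overlapped between the groups, and neither passed the test (edgeR, adjusted p = 0.235 and 0.248). In all, 5 of the 31 genes did not overlap, PGM2 and EPM2A with higher and PGM5, PHKB and NHLRC1 with lower values in the PDZK1 libraries, where 23.9% of all genes tested did not overlap.

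**Figure D4:**
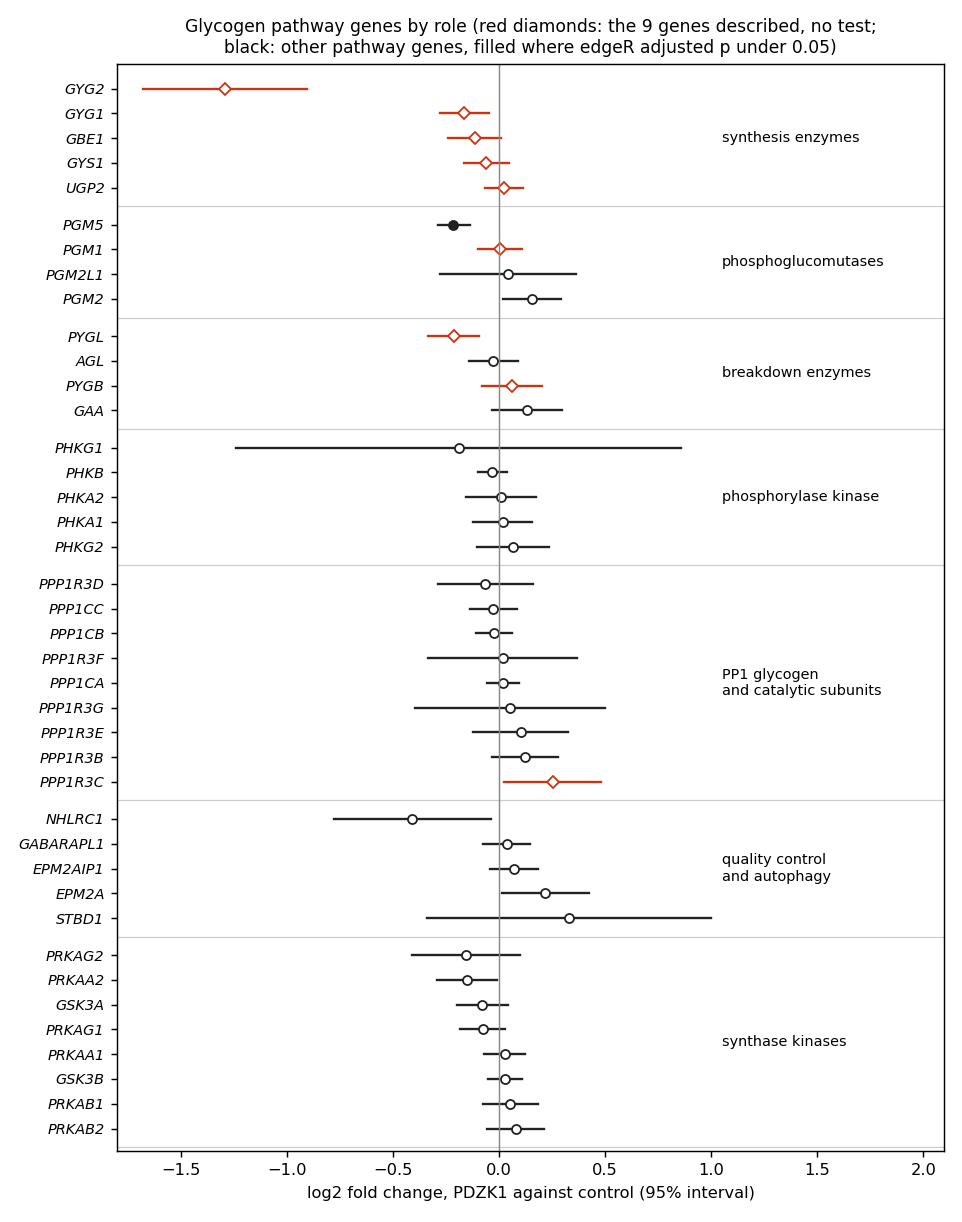
Log2 fold change of PDZK1 against control (horizontal axis) with its 95% interval for the 9 genes (red diamonds, no test) and the other tested glycogen genes (black, filled where past an adjusted p of 0.05), grouped by role. GYG2 lies at -1.29, far to the left of the others, and PGM5 at -0.21 is the only filled point.

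Glucose 6-phosphate and UDP-glucose are the metabolites that connect glycogen to the rest of sugar metabolism. Of a further list of 19 genes that act on or near these metabolites, 15 were tested. Of these, 3 fell and 0 rose (20.0%, where 3.83% of all genes changed), 12 of the 15 log2 fold changes were below 0, and their median was -0.08. The list was chosen with earlier results of these data known, so this share is a description and no excess is read from it. The 3 that fell were the hexokinases HK2 and HKDC1, which trap glucose as glucose 6-phosphate, and UGCG, which uses UDP-glucose to make glucosylceramide. HK2 had 36.1, 38.8 and 36.8 CPM in the control libraries and 28.8, 28.6 and 28.3 CPM in the PDZK1 libraries (log2 fold change -0.38 ± 0.0541 SE, adjusted p = 0.00454, edgeR). HKDC1 had 178, 172 and 186 CPM in the control libraries and 147, 142 and 150 CPM in the PDZK1 libraries (log2 fold change -0.29 ± 0.0399 SE, adjusted p = 0.00403, edgeR). For both, the PDZK1 libraries lay together below all controls, and the call was lost on log2(FPKM + 1) without a filter (limma, adjusted p = 0.0648 for HK2 and 0.0505 for HKDC1, the highest of their alternatives). UGCG had 396, 400 and 374 CPM in the control libraries and 351, 337 and 334 CPM in the PDZK1 libraries (log2 fold change -0.20 ± 0.0393 SE, adjusted p = 0.026, edgeR). Its call was lost in 9 of 16 alternatives, among them the replicate block (adjusted p = 0.0947; range over the alternatives 0.000999 to 0.134) and the omission of any single library other than control replicate 3. HK1, the most widely expressed hexokinase, did not pass the test and had 346 ± 1.74 CPM in control cells and 328 ± 1.41 CPM with PDZK1 (SD, n = 3 each). HK3, a hexokinase, and G6PC1 and G6PC2, glucose 6-phosphatases of other tissues, were at 0 in every library.

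The genes whose pattern over the 6 libraries was most like that of GYG2 were SULF2, LAMA5 and RAP1GAP2, with Pearson's r of log2 CPM of 0.997, 0.997 and 0.996. At the looser cut of an r over 0.95 with GYG2 there were 192 of 13644 genes (1.41%). For PPP1R3C they were KAT5, RUNX2 and SESN2, with r of 0.988, 0.988 and 0.987, and 50 genes (0.366%) had an r over 0.95. The 6 points share libraries and fall into the 2 groups, so these values are a description only.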

How the data were processed

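Total RNA from 6 ARPE-19 samples (3 control lentivirus, 3 PDZK1 overexpression lentivirus, grouped by the labelled treatment) was sequenced. The authors deposited a table of estimated counts per gene, given as whole numbers and not scaled for depth, and a table of FPKM, which the authors scaled by transcript length and library size. The submitters' processing notes name fastp 0.20.1, HISAT2 2.2.1 and GRCh38. The counting program, the annotation and the strandedness are not given in the sources used here, and each table held 3 further per-sample columns that match no sample and were not used.

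Of 21314 entries, 853 assembled loci without a gene name were left out after the tables had been seen. Counts were fitted with edgeR 4.0.16 (filterByExpr, TMM, robust quasi-likelihood test, no covariates) in R 4.3.3, with Benjamini-Hochberg adjustment over 13645 genes and a threshold of 0.05. CPM use TMM-scaled totals. The procedure was run on counts simulated from the mean levels and fitted dispersions of these data, a setting that cannot test the model itself. The alternatives were DESeq2 1.42.0, limma 3.58.1 on log2(FPKM + 1) or log2(FPKM + 0.1) with a minimum mean of 0.5 or none, other scaling and filters, a replicate block, each library left out, PDZK1 left out of scaling, and assembled loci kept (this last chosen after seeing the data). Ratios and shares were formed per library from FPKM. Gene positions are from GENCODE release 29, and promoter sequences from RefSeq.

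The 9 genes and the lists were chosen with earlier results of these data known, so for the 9 genes the contrast is a description without a test. For the lists, the shares past the threshold are likewise a description. Named genes were the 9, PDZK1, listed genes past the threshold, the most abundant gene of each glycogen role, and the 3 genes most correlated with the members of highest and lowest fold change. GYS2, PYGM, BEST1, HK1, PGM2, EPM2A, NHLRC1, the untested genes and the pseudogenes were named after their values were seen.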

Additional observations from a re-analysis of the deposited data

How the results depend on the processing

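The number of genes past the threshold, 522, became 793 with DESeq2, 184 on log2(FPKM + 1), 185 on log2(FPKM + 0.1), 185 on FPKM without a filter and 163 with the replicate block, and ran from 181 to 875 when 1 library was left out (181 without PDZK1 replicate 1, 875 without control replicate 3). Of the 9 genes, 2 passed with DESeq2 (GYG2 and PYGL), and 1 to 3 with 1 library left out, the 3 without control replicate 3 (GYG2, PYGL and PPP1R3C). GYG2 passed in all 16 alternatives, with log2 fold changes of -1.38 to -0.77, the smallest on the log2(FPKM + 1) scale, which understates low genes. The 9 genes were chosen with this contrast known, and the alternatives draw on the same libraries. Passing therefore describes the processing and lends the members no further support. GYG1 was at 0.02 on the FPKM scales and -0.21 to -0.12 with 1 library left out. PYGL stayed between -0.25 and -0.17 and PPP1R3C between 0.15 and 0.36. The wider glycogen list had 0 genes past the threshold with log2(FPKM + 1), log2(FPKM + 0.1) and the replicate block, and 0 to 1 with 1 library left out. The glucose 6-phosphate and UDP-glucose list had 0 on FPKM without a filter, and 2 to 4 under the others (2 to 3 with 1 library left out). The labels do not say whether libraries with the same replicate number were handled together. The correlation of their deviations from the group means was -0.0462, -0.056 and -0.143, which cannot settle it. With the replicate block 1 of the 9 genes passed, GYG2. Depth limits GYG2 most, at 89 to 309 counts per library. The causes of these changes were not tested.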
